A study of Mus musculus with 2 samples.

Results

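DNase I hypersensitive sites (DHSs), stretches of chromatin that the nuclease DNase I cuts more readily than their surroundings, were examined around 8 Hedgehog pathway genes in mouse adrenal gland. The genes were Shh, Ptch1, Hhip, Smo, Sufu, Gli1, Gli2 and Gli3, all 8 found among the 21815 protein-coding genes of GENCODE M21 (mm10) that carry a unique symbol. A DHS was assigned to a gene when it touched the gene body or the 50 kb on either side, which gave 160 of the 130945 DHSs of replicate 1 and 138 of the 157786 DHSs of replicate 2. The libraries came from whole adrenal gland of male B6CASTF1/J mice (a first-generation cross whose name joins B6 and CAST) aged 25 days, with 1 library per biological replicate, no treatment named in the labels and no second group. The labels number the animals separately but give both the same donor code, so the difference between the 2 libraries may be technical, biological or both. With 1 group of 2 libraries no test was possible, and values are given per library, each pair being that of replicate 1 and replicate 2.

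Hedgehog ligands bind Ptch1, a membrane protein that otherwise holds the transducer Smo inactive. Freed Smo lets Gli proteins escape their cytoplasmic restraint by Sufu and act on target genes, among them Gli1, Ptch1 and the ligand-binding decoy Hhip, which feed back on the signal. In the mouse adrenal gland Shh is made by cortical cells beneath the capsule, and the responding Gli1-positive mesenchymal cells lie in the capsule itself. DNase-seq of whole gland mixes these with many other cells, so fewer cells with an open site and a site less open in each cell cannot be told apart.

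Sequences are shown for the sites on which the account turns. DHS sequences were read from the plus strand of GRCm38.p6, the assembly called mm10, and promoters on the gene's strand from RefSeq's table for the same build, which runs from 250 bases before a gene's start to 50 after it. First come the only 2 places in the windows where a DHS held the consensus that Gli proteins bind, GACCACCCA or its reverse complement, in capitals: 29 bases of the first exon of the most 5′ Ptch1 transcript at chr13:63573455-63573483, and the whole DHS upstream of Smo at chr6:29718961-29719140.
Ptch1 first exon: gccctcggcgTGGGTGGTCtgccgcgcca
Smo upstream: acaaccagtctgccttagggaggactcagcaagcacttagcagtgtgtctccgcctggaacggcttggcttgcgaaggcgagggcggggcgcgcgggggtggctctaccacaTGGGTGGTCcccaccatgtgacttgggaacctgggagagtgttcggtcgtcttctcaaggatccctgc

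The next 3 are the strongest distal DHS of Gli2 at chr1:118976641-118976820, the footprinted stretch of the strongest distal DHS of Ptch1 at chr13:63567827-63568016 and the DHS downstream of Gli3 at chr13:15759201-15759380. Capitals mark bases inside a footprint in both libraries. A footprint is a short protected stretch within a DHS that the authors called from the cut pattern, and it does not name the protein.
Gli2 intron: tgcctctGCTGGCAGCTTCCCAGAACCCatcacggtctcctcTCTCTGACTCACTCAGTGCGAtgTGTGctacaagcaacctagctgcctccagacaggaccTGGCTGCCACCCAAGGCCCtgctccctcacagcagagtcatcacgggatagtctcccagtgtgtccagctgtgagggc
Ptch1 intron: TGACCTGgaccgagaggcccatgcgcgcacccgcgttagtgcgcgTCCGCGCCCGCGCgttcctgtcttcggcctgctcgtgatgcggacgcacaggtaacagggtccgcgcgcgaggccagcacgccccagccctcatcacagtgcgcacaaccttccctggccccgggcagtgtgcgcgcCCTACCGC
Gli3 downstream: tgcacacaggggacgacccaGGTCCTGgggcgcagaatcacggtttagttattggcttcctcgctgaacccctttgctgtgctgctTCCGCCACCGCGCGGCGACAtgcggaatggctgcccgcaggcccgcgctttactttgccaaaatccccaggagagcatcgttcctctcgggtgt

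The 2 strongest DHSs of the Shh window follow, at chr5:28451301-28451460 and chr5:28469881-28470060, with capitals for bases footprinted in replicate 1, because replicate 2 had few footprints there.
Shh downstream: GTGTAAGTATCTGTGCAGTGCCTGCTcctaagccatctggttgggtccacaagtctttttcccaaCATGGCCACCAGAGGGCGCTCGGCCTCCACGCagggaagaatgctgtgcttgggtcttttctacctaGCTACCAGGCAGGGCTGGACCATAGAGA
Shh upstream: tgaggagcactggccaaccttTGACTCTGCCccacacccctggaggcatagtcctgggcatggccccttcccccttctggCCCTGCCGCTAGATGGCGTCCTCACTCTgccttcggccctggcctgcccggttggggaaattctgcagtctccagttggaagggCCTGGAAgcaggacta

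The promoters of Gli2 (chr1:119053570-119053869, minus strand) and Hhip (chr8:80057959-80058258, minus strand) are shown because one was among the taller member promoters and the other the weakest found in both libraries. Capitals again mark bases footprinted in both libraries, 32 bases in the Gli2 window and 8 in the Hhip window.
Gli2 promoter: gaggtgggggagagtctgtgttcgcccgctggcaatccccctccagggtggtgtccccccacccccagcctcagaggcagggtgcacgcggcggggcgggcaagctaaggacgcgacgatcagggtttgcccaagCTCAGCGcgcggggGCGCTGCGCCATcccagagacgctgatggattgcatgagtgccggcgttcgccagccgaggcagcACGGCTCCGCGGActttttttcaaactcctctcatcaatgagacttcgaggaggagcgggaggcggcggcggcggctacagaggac
Hhip promoter: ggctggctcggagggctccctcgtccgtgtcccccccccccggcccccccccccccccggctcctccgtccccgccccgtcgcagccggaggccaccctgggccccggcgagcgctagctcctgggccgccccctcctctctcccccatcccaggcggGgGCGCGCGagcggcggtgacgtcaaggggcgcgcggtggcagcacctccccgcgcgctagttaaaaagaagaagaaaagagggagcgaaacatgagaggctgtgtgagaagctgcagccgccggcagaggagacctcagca

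RefSeq's promoter table matched 6 of the 8 genes: Ptch1, Hhip, Smo, Sufu, Gli2 and Gli3.

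A promoter DHS, one touching the 1 kb on either side of a protein-coding transcript start, was found in both libraries at 7 of the 8 genes, all but Shh. Over all protein-coding genes the share with such a DHS was 65.8% for both libraries together, 69.4% for replicate 1 and 69.1% for replicate 2. The gene windows differed more in what lay around the promoters. Sufu's window held 42 and 34 DHSs, Gli2's 31 and 21, Gli1's 22 and 22, Gli3's 18 and 17, Ptch1's 17 and 18, Smo's 13 and 16, Shh's 13 and 8, and Hhip's 4 and 2. Per 100 kb of window the 8 genes had a median of 10.3 DHSs in replicate 1 (range 2.08 to 21.9) and 9.07 in replicate 2 (range 1.04 to 19.6), beside 8.16 and 8.39 over all protein-coding genes. Hhip was at the sparse end, at the percentile 16.3 of all genes in replicate 1 and 4.50 in replicate 2, and Sufu and Gli1 were at or above the percentile 88.4 in both. The windows of Sufu and Gli1 held the promoters of several neighbouring genes, while those of Hhip, Gli2 and Gli3 overlapped no other protein-coding gene.

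**Figure D1:**
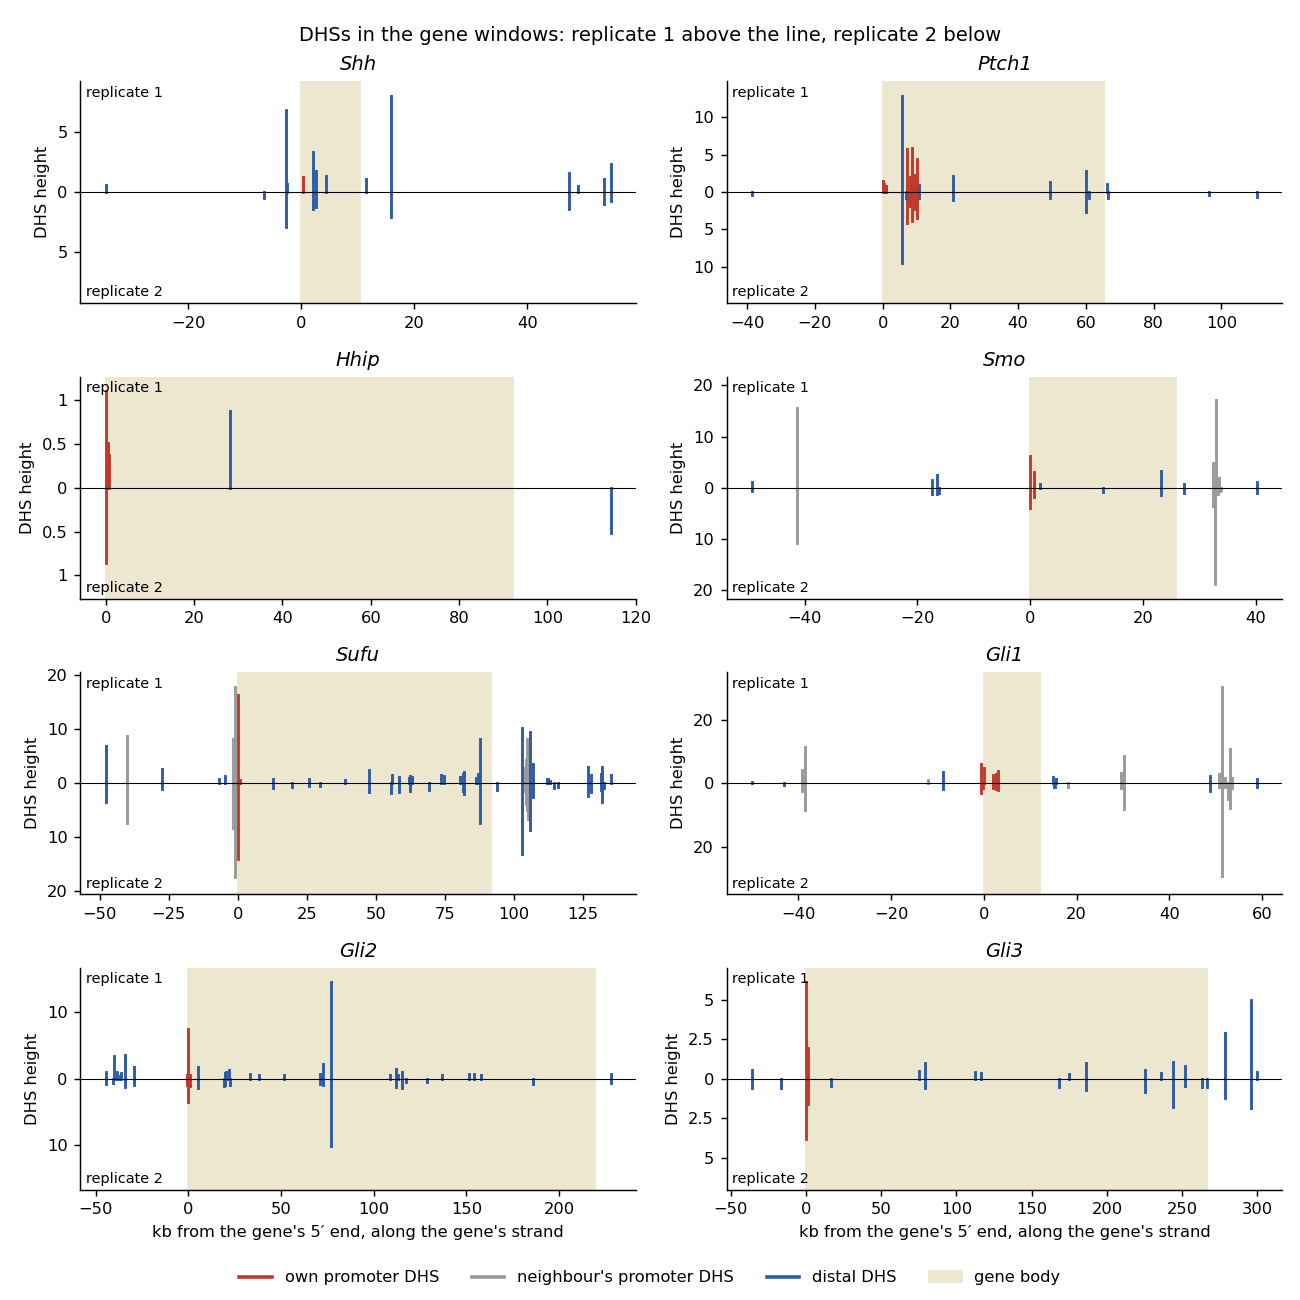
Each vertical line is 1 DHS, drawn at its distance in kb from the gene's 5′ end along the gene's strand, with its height above the line for replicate 1 and below it for replicate 2; vertical scales differ between genes and the shaded band is the gene body. Shh has tall lines on either side of the gene in replicate 1, 8.08 and 6.88, that are shorter in replicate 2, 2.06 and 2.92, while the intronic Gli2 line is tall in both at 14.5 and 10.1.

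The ligand gene Shh (chr5:28456815-28467256, minus strand, 1 protein-coding start) had 1 promoter DHS, at chr5:28466761-28467200, with a height of 1.27 and 4 footprints in replicate 1 and no DHS in replicate 2. Height is the deposited signal of a DHS, whose scaling between libraries no label states, so which library is taller at a site refers to heights as deposited. All the other Shh sites were distal, meaning away from every protein-coding start by more than 1 kb. The tallest in replicate 1 lay 15875 bp downstream of the Shh 5′ end, beyond the 3′ end of the gene, with heights of 8.08 in replicate 1 and 2.06 in replicate 2. The tallest in replicate 2 was a DHS 2715 bp upstream of the 5′ end, at 6.88 in replicate 1 and 2.92 in replicate 2. A DHS in an intron of Shh, at chr5:28465061-28465260, was at 3.36 and 1.43. These 3 sites were found in both libraries, and each was taller in replicate 1, as were 65.8% of all shared distal DHSs.

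Footprints at Shh numbered 28 over 13 DHSs in replicate 1 and 5 over 8 DHSs in replicate 2. The whole library of replicate 1 had 272597 footprints and 130945 DHSs, and that of replicate 2 had 184847 and 157786. Both tall flanking sites held the letters AGNNGGCG, an 8-letter part of the longer motif of the insulator protein CTCF, inside a footprint of replicate 1, and in the downstream site the match also touched a footprint of replicate 2. That pattern was added to the motif list after the sequences had been seen, and it is common: on either strand it occurred in 20.0% and 18.8% of the DHSs in the 8 windows and in 17.7% and 12.8% of all DHSs.

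The receptor gene Ptch1 (chr13:63508328-63573598, minus strand, 5 protein-coding starts) was open mainly at its internal starts, not at its 5′ end. A run of promoter DHSs between 7277 and 10207 bp downstream of the 5′ end held 7 sites, 6 of them found in both libraries, and its tallest were 5.88 and 3.84 at chr13:63564681-63565120, and 5.77 and 4.19 at chr13:63566221-63566420. Between this run and the 5′ end stood the tallest Ptch1 site, an intronic DHS at chr13:63567801-63568180 of 12.9 and 9.53, which also overlaps an exon of the non-coding gene A930032L01Rik. At the 5′ end itself 3 promoter DHSs of 0.742, 1.07 and 1.42 were found in replicate 1 and none in replicate 2. The site of 1.42, at chr13:63573321-63573500, is the one with the GLI consensus shown above, 129 bp into the gene. Its 2 footprints in replicate 1 did not cover the motif, whose nearest footprint centre was 54 bp away.

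Hhip, the decoy that binds Hedgehog ligands (chr8:79965851-80058006, minus strand), had the least open chromatin of the 8 genes. Its promoter DHS at chr8:80057881-80058200 had heights of 1.10 and 0.862, at the percentiles 10.4 and 10.2 of open promoters. A pair of further promoter DHSs of 0.508 and 0.367 was found in replicate 1 only. The 2 distal sites did not coincide: an intronic DHS of 0.875 in replicate 1, 28185 bp into the gene, and a DHS of 0.515 in replicate 2 beyond the 3′ end. Hhip was thus the only member with no distal DHS shared by the libraries. Of the 6 matched RefSeq promoters, the Hhip promoter alone held the cyclic AMP response element TGACGTCA (CRE), which occurs in 1.79% of all RefSeq promoters.

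The transducer gene Smo (chr6:29735503-29761365, plus strand) had 2 promoter DHSs in each library, the taller at 6.27 and 4.07 and the other at 3.07 and 1.89. The taller one held 4 footprints in replicate 1 and 1 in replicate 2. Its strongest distal DHS inside the gene, in an intron 23168 bp from the 5′ end, had heights of 3.16 and 1.52. The DHS upstream of Smo with the GLI consensus, 16452 bp before the 5′ end, was at 2.40 and 1.24. There the motif touched a footprint in replicate 2 and none in replicate 1. The tallest DHSs of the window belonged to neighbours: 17.1 and 18.9 at the Ahcyl2 promoter, and 15.5 and 10.9 at that of Tspan33.

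Sufu, which binds Gli proteins and holds them back (chr19:46396896-46488804, plus strand), had the tallest promoter DHS of the 8 genes, at 16.4 and 14.1. That site, chr19:46396741-46396980, also lies within 1 kb of a start of the neighbouring gene Actr1a, so its height cannot be given to Sufu alone. The median log2 ratio, replicate 1 over replicate 2, of the 27 Sufu loci found in both libraries was 0.17. An intronic DHS at chr19:46484581-46484820, 87845 bp from the 5′ end, had heights of 8.25 and 7.33, with 3 footprints in each library. The E-box CAGCTG, a site for basic helix-loop-helix proteins, touched a footprint in both. The strongest distal DHS of the window, chr19:46499841-46500220, was at 10.3 and 13.2, taller in replicate 2, and stands beyond the 3′ end of Sufu next to Trim8.

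Of the 3 Gli genes, Gli1, an activator and itself a target of the pathway (chr10:127329882-127341974, minus strand), had 5 promoter DHSs in each library, and all 5 were shared and taller in replicate 1. The tallest was 517 bp upstream of the 5′ end, at 6.04 and 3.12, and one 57 bp upstream was at 4.80 and 1.67. The other 3 lay in introns around an internal start, at 3.93 and 2.24, 3.05 and 1.84, and 2.52 and 1.42. Over all promoter DHSs 80.9% and 81.1% were shared, and 81.2% of the shared ones were taller in replicate 1, so the Gli1 promoters are not unusual in this. The strongest distal DHS upstream of Gli1, 8817 bp from its 5′ end and in an exon of another gene, had heights of 3.54 and 1.86. A weaker distal DHS at chr10:127282966-127283122, at 1.40 and 1.34, held CAAGGTCA. This is the binding sequence of SF-1, the product of Nr5a1 and a main regulator of steroid-making cells. The match touched a footprint in both libraries. That DHS lay in an exon of another gene, 58930 bp downstream of the Gli1 5′ end and beyond the promoters of Mars, Ddit3 and Mbd6. SF-1 sites of this form were in 1.25% and 0.725% of the DHSs of the 8 windows, beside 2.75% and 2.24% of all DHSs.

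Gli2, the main activator among the Gli proteins that the signal first acts on (chr1:118834132-119053619, minus strand), had its tallest promoter DHS 82 bp upstream of the 5′ end, at 7.51 and 3.45. The intronic DHS 76888 bp into the gene, at 14.5 and 10.1, was the tallest distal DHS of all 8 windows in replicate 1. It held 4 footprints in each library, and the AP-1 sequence TGACTCA (searched as TGANTCA, a site for Fos and Jun proteins) lay in a footprint of both at chr1:118976687-118976693. The 7-base core of the GLI consensus, CCACCCA, also lies within its capitals. Upstream of the gene, DHSs 34112 and 40302 bp from the 5′ end were at 3.53 and 3.44 in replicate 1, and at 1.19 and 0.631 in replicate 2. The log2 ratio of replicate 1 over replicate 2 was 0.51 at the intronic site, and 1.57 and 2.45 at the upstream ones, so the libraries differed unevenly along Gli2.

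Gli3, which acts mainly as a repressor when no ligand is present (chr13:15463235-15730026, plus strand), had 4 promoter DHSs in each library. The tallest, 54 bp upstream of the 5′ end, was at 6.09 and 3.77, and the others were between 0.418 and 1.93. The distal sites of its window were mostly low, with a median height of 0.550 in replicate 1 and 0.577 in replicate 2. The tallest distal site stood beyond the 3′ end, at 4.97 and 1.87 (chr13:15759201-15759380). Another one there was at 2.89 and 1.19 (chr13:15741861-15742100), second in replicate 1, while in replicate 2 an intronic site at 1.76 was taller. Both were found in both libraries and both held footprints in each.

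Put in order of the strongest promoter DHS, Sufu stood above the rest in both libraries. Gli2, Smo, Gli3, Gli1 and Ptch1 were close to one another, at 7.51, 6.27, 6.09, 6.04 and 5.88 in replicate 1. In replicate 2 the same genes were at 3.45, 4.07, 3.77, 3.12 and 4.19, in another order, and the gap between the highest and lowest of them was smaller than the gap between the libraries for Gli2. Hhip and Shh were lowest. The median over the members was 6.07 in replicate 1 (8 genes) and 3.77 in replicate 2 (7 genes), beside 8.85 and 6.25 over all genes with a promoter DHS. All members but Sufu that had a promoter DHS in a library were below the median of open promoters there: Gli2, the second tallest in replicate 1, was at the percentile 43.8 there and 33.3 in replicate 2.

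**Figure D2:**
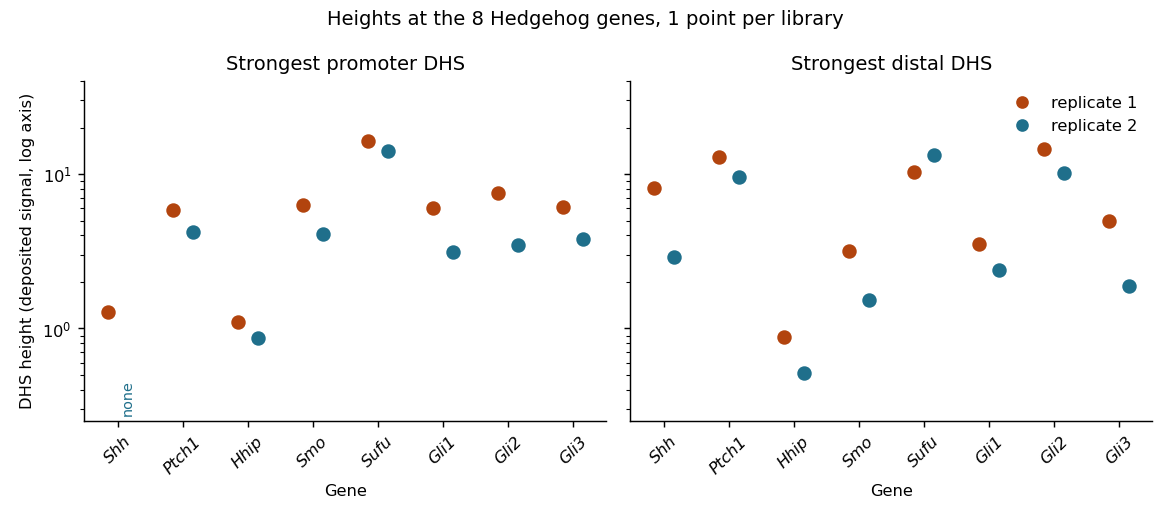
Height of the strongest promoter DHS (left) and strongest distal DHS (right) of each gene on a log axis, 1 point per library, with "none" where a library had no such DHS. Sufu is highest among promoters at 16.4 and 14.1, and Gli2, Ptch1 and Sufu are highest among distal sites, from 9.53 to 14.5.

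Of the DHSs in the windows, 109 of 160 in replicate 1 (68.1%, 95% Wilson interval 60.6 to 74.8) and 109 of 138 in replicate 2 (79.0%, 71.4 to 85.0) overlapped a DHS of the other library by at least 1 bp, beside 62.2% and 51.8% of all DHSs. The intervals cover counting error only. Distal DHSs made up 107 of 160 (66.9%) and 89 of 138 (64.5%), beside 76.0% and 80.0% of all DHSs. Of the distal DHSs, 65 of 107 (60.7%) and 64 of 89 (71.9%) were shared, beside 56.3% and 44.5% overall. A footprint was present in 135 of 160 DHSs (84.4%, 78.0 to 89.2) in replicate 1 and in 104 of 138 (75.4%, 67.6 to 81.8) in replicate 2, beside 77.6% and 63.1% of all DHSs. DHSs of 1 window share their surroundings and are not independent draws, so these shares describe the 8 windows and nothing wider.

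Merging overlapping DHSs of the 2 libraries gave 187 loci, of which 107 were in both, 51 in replicate 1 only and 29 in replicate 2 only. Loci of a single library were mostly low, with a highest value of 1.67 among those of replicate 1 and 4.98 among those of replicate 2, a site at the promoter of Mbd6 in the Gli1 window. Among unshared DHSs, 3 of 51 in replicate 1 and 5 of 29 in replicate 2 were touched by the stretches of low false discovery rate (FDR) deposited for the other library (5.88% and 17.2%, beside 9.23% and 6.77% of all unshared DHSs), so most had no signal there at the FDR threshold of 0.05. The Mbd6 site was one of the 5 touched, with 220 bp inside such stretches of replicate 1, so it was not without signal in that library. Of the 64 distal loci found in both libraries, 49 held a footprint in both: 15 of 18 at Sufu, 10 of 14 at Gli2, 7 of 8 at Gli3, 6 of 6 at Smo, 4 of 6 at Ptch1, 4 of 7 at Shh and 3 of 5 at Gli1. Over all 187 loci, those of a single library included, 121 of the 346 footprints of replicate 1 overlapped one of the 226 of replicate 2. Neither this share nor that of the 64 distal loci was measured over all DHSs, so neither is read as particular to these windows.

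**Figure D3:**
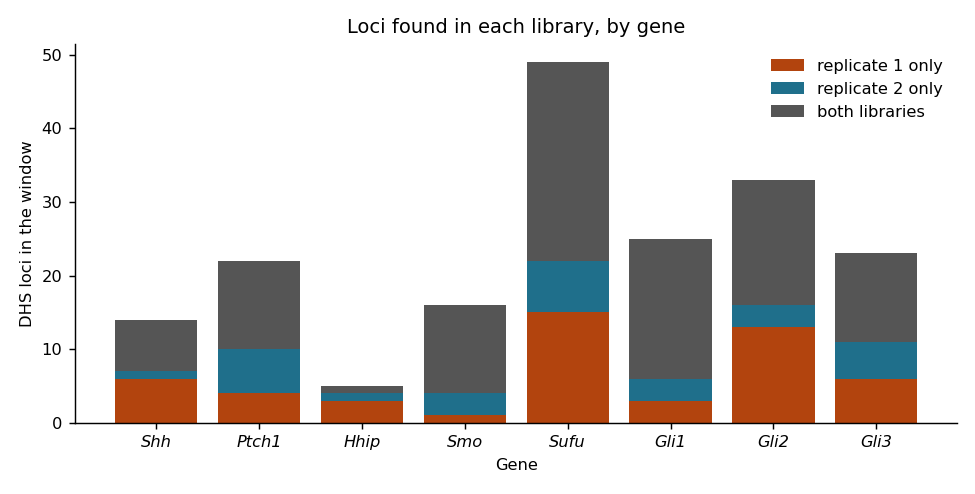
Stacked bars count the DHS loci of each gene window, with those of replicate 1 only at the bottom, those of replicate 2 only above them and those in both libraries on top. Most Gli1 loci (19 of 25) and Smo loci (12 of 16) are in both libraries, while Gli2 has 13 of its 33 in replicate 1 only.

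At all 8 genes the summed height of the window was larger in replicate 1 as deposited, as it was at most protein-coding genes (lower quartile of the log2 ratio 0.20). The gap was wider at Shh than at most genes. Dividing heights by each library's median height takes 0.49 from every log2 ratio and leaves 4 of the 8 above 0 (Shh, Hhip, Gli2 and Gli3, the last at 0.02), so the ratios are read against the median over all genes, which becomes -0.07, and by percentile, which such scaling does not change. The summed height of the DHSs in the Shh window was 30.5 in replicate 1 and 11.3 in replicate 2, a log2 ratio of replicate 1 over replicate 2 of 1.43, at the percentile 98.7 of the 20343 genes with DHSs in both libraries. For Hhip the sums were 2.85 and 1.38 (log2 ratio 1.05, percentile 95.7), resting on 4 and 2 DHSs. With a flank of 100 kb the Hhip ratio was 0.34. For Gli2 they were 52.9 and 30.7 (log2 ratio 0.79, percentile 87.7). Gli3 (0.51), Ptch1 (0.45), Gli1 (0.31), Sufu (0.26) and Smo (0.22) were closer to the median over all genes, 0.41, with quartiles of 0.20 and 0.62. All 7 Shh loci found in both libraries were taller in replicate 1. Their median log2 ratio was 1.23, beside 0.34 over all shared DHSs, 70.6% of which were taller in replicate 1. At Gli1 the strongest promoter DHS had a log2 ratio of 0.95, above the 0.31 of its window, where 11 of the 22 DHSs of each library lay at neighbours' promoters. The promoter ratio was also above that of the window at Gli2 (1.12), Gli3 (0.69), Smo (0.62) and Ptch1 (0.49). It was below that of the window at Hhip (0.35) and Sufu (0.22). The part of neighbouring promoters in these differences was not tested.

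**Figure D4:**
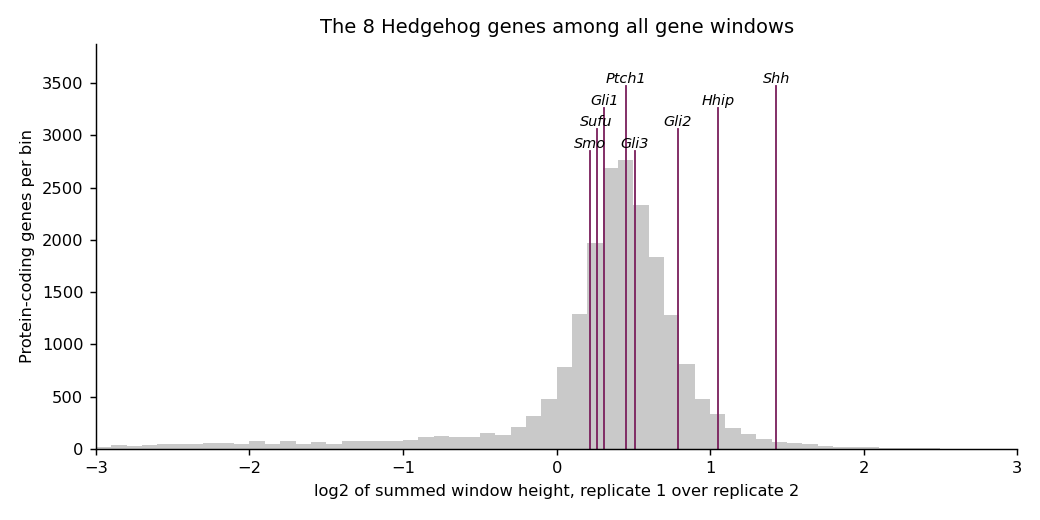
Grey bars count protein-coding genes by the log2 ratio of summed window height, replicate 1 over replicate 2, in bins of 0.1; labelled lines mark the 8 genes. Shh (1.43) and Hhip (1.05) lie in the right tail, and Smo (0.22), Sufu (0.26) and Gli1 (0.31) lie left of the median of 0.41.

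Promoter heights of marker genes of the gland's cell types were summed per library, as deposited. Over the 14348 genes open in both libraries (65.8% of protein-coding genes), the log2 ratio of promoter height, replicate 1 over replicate 2, had a median of 0.46. Its quartiles were 0.21 and 0.75. The sums below were not scaled for this general difference. Adrenal cortex markers were open in both libraries at 9 of 10 genes (Hsd3b1 had no promoter DHS), with summed promoter heights of 49.6 in replicate 1 and 27.2 in replicate 2. Capsule and fibroblast markers were open in both at 7 of 9 (Lum had none and Tcf21 had one in replicate 1 only), with sums of 21.5 and 11.3. Chromaffin markers were open at 6 of 8, with sums of 24.5 and 10.7, Schwann markers in both at 2 of 5 with sums of 15.9 and 10.6, and endothelial markers at 4 of 4 with sums of 6.99 and 5.59. The 4 macrophage and 4 liver markers had no promoter DHS in either library, and of the 4 kidney markers only Aqp2 did, at 1.12 and 0.853. The part of cell makeup, or of library quality, in the height differences at Shh, Gli1 and Gli2 was not tested.

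The 9-base GLI consensus occurred in 2 DHSs of the windows in replicate 1, those of Ptch1 and Smo shown above, and in 1 in replicate 2, that of Smo. Over all DHSs it was in 0.108% and 0.100%, and over RefSeq promoters in 0.253%, with none of the 6 matched members among them. The 7-base core was in 13 DHSs (8.12%) and 9 DHSs (6.52%) of the windows, beside 5.79% and 5.19% of all DHSs. All consensus sequences were searched on both strands. AP-1, written TGANTCA, was in 13 (8.12%) and 12 (8.70%) of the DHSs in the windows, beside 11.5% and 9.34% of all DHSs. The SP and KLF consensus, GGGCGGG, was in 27 (16.9%) and 30 (21.7%), beside 12.2% and 9.28%. The TEAD consensus, GGAATGT, was in 9 (5.62%) and 4 (2.90%), beside 2.21% and 1.93%. The E-box, CAGCTG, was in 29 (18.1%) and 20 (14.5%), beside 15.8% and 12.6%. The ETS consensus, CCGGAAG, was in 6 (3.75%) and 6 (4.35%), beside 3.44% and 2.92%. RUNX sites, written TGTGGTT, were in 3 (1.88%) and 1 (0.725%), beside 2.94% and 2.94%. NRF1 sites, written GCGCATGCG, were in 3 (1.88%) and 3 (2.17%), beside 0.583% and 0.465%. The CRE, TGACGTCA, was in 1 DHS of each library, beside 0.713% and 0.598%, and the sequence of the GATA factors, AGATAAG, in 1 DHS in replicate 1 and none in replicate 2, beside 1.57% and 1.51%. A match describes the letters only, and says nothing of what was bound.

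Other genes of the pathway were counted from lists of ligands and their release, reception, relay and targets. The count of each list stands beside the 65.8% of all protein-coding genes that were open in both libraries. Promoters of the ligand and release genes were open in both libraries at 6 of 8. Dhh, the ligand of testis and nerve, was at 1.67 and 1.70, and Ihh, the ligand of growing cartilage, at 0.617 in replicate 1 with no promoter DHS in replicate 2. Scube1, which helps carry released ligand, was the tallest of this list at 10.9 and 5.38. Among its other members Hhat, which attaches the fatty acid that ligands need, was at 4.71 and 4.97, Disp1, which releases the ligand, at 4.45 and 3.02, Scube3 at 2.35 and 1.78, and Scube2 at 2.02 and 0.657. The ligand list had a median height of 2.19 over its 8 open genes in replicate 1. In replicate 2 the median was 2.40 over 6 genes, without Shh and Ihh, so the 2 medians cover different genes. Both were below the 8.85 and 6.25 of all open promoters.

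All 11 reception genes were open in both libraries, with median heights of 6.27 and 4.07. The tallest were Cdon, a co-receptor, at 12.2 and 11.0, and Mgrn1, a ubiquitin ligase that lowers surface Smo, at 11.5 and 7.74. All 23 relay genes were open in both, with medians of 13.6 and 8.90. By the mean of the 2 libraries they were led by Btrc (30.0 and 18.8), which marks Gli proteins for processing, Gsk3b (19.9 and 24.7), a kinase of Gli proteins, and Arrb2 (26.9 and 16.5), an arrestin that associates with Smo. Of the 13 target genes 12 were open in both, with medians of 4.64 and 2.82. By the mean of the 2 libraries Snai1 was tallest at 17.2 and 13.6, then Ccnd2 at 9.22 and 4.74 and Mycn at 6.80 and 3.78, and Foxl1 had no promoter DHS in either library. The relay genes serve many cell types and stood above the median of open promoters, and the ligands, receptors and targets stood below it.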

How the data were processed

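DNase-seq libraries of mouse adrenal gland (1 group, 2 libraries) were analysed from the peak, footprint and FDR lists that the authors deposited, in mm10 per the labels. The aligner, the callers and their filters were not given in the sources used here. Height is the deposited signal of column 7 in the longer of 2 peak lists per library. Per the values, deposited heights were whole multiples (tolerance 0.05 of a step) of 0.00833 and 0.00888, which, if heights were CPM, would mean libraries of 120.0 and 112.6 M counts. Median heights were 1.01 and 0.720. Deposited FDR values (q-values) were at most 0.05 in the FDR list, and footprints, 272597 and 184847 in number, carried 0.01.

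From these, DHSs touching each gene body or 50 kb on either side were classed as promoter (within 1 kb of any protein-coding start of GENCODE M21) or distal, and joined by overlaps of at least 1 bp. Motifs were searched in GRCm38.p6 with Python 3.11.15, numpy 2.4.6, pandas 2.3.3 and scipy 1.17.1. Reads of the CAST alleles were placed in mm10 coordinates, and any loss was not tested. The overlap and motif code was tested on simulated data. The members, gene lists and most alternatives were chosen with earlier results of these data known. The genes named are the 8 members, every gene of lists of up to 8 pathway genes, and otherwise the 3 tallest and those with no promoter DHS; a few that this rule names are not reported here.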

Additional observations from a re-analysis of the deposited data

How the results depend on the processing

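No paired analysis was possible because there is 1 group of 2 libraries, and nothing here carries a test. Promoter DHSs in both libraries were found at 7 genes; at 8 with a promoter window of 2.5 kb, which takes in a nearby distal Shh site, and at 6 with the gene's 5′ end as the only start, where Ptch1 joins Shh. The mean number of DHSs in the windows, 149, was 96 with a flank of 10 kb, 216 with 100 kb and 92 with the shorter peak lists, and without 1 library between 138 and 160. The shared share, 73.6% on average, was 59.4% when 50% of each DHS had to overlap. The distal share, 65.7%, was 72.1% and 57% with promoter windows of 0.5 and 2.5 kb, and 53.6% with the shorter lists; without 1 library it was between 64.5% and 66.9%, and the footprint share between 75.4% and 84.4%. DHSs with a GLI motif averaged 1.5 per library (1 and 2 without 1 library), 11 with the 7-base core, 12 with 1 mismatch and 0.5 with a flank of 10 kb. Of 40 alternatives of the log2 ratios of summed height 7 turned the sign, all by scaling: with heights over the median height Ptch1 was -0.03, Smo -0.26, Sufu -0.23 and Gli1 -0.18, and with heights over the summed height Smo was -0.17, Sufu -0.14 and Gli1 -0.09. The median over all genes was then -0.07 and 0.02. Shh stayed between 0.94 and 1.82; Hhip ran from 0.34 with a flank of 100 kb to 1.73 with 10 kb. Of 56 alternatives of mean promoter heights 3 moved a value by more than the spread between the libraries (for Shh, which has no spread, at all), all with a window of 2.5 kb: Shh (2.39 on average), Ptch1 (11.2) and Sufu (17.6). With only the gene's 5′ end, which gives no mean, Ptch1 was at 1.42 in replicate 1 and had no promoter DHS in replicate 2. No shared count exists without 1 library. The alternatives of the log2 ratios, the distal, footprint and GLI values without 1 library, and the CTCF letters were chosen after seeing the data. Low heights near the lists' thresholds limit what single-library sites can show.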

Other observations

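Beyond the Shh window the DHSs grew sparser, in a region chosen after the windows had been seen. Between the window and Lmbr1, chr5:28517257-29229801, there were 23 distal DHSs in replicate 1 and 32 in replicate 2, 11 of them shared, or 3.23 and 4.49 distal DHSs per 100 kb, beside 10.9 and 7.24 in the Shh window. The Shh window was itself at the percentiles 88.5 and 70.3 of all gene windows, whose medians were 4.89 and 5.22 distal DHSs per 100 kb. The tallest distal DHS between the window and Lmbr1 was at chr5:28521281-28521460, at 5.28 in replicate 1 and 2.95 in replicate 2. Within Lmbr1, whose introns hold a distant limb enhancer of Shh, there were 3 and 6 distal DHSs, of which 1 was shared, and its highest values were 2.57 and 1.07.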
